A study of Mus musculus with 22 samples.

Results

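The distal convoluted tubule and the connecting tubule are the short nephron segments between the loop of Henle and the collecting duct. They were followed through 8 genes listed by name: Slc12a3, Pvalb, Trpm6, Calb1, Slc8a1, Trpv5, S100g and Klk1. All 8 were found among the 16556 genes of the count table, and all 8 passed the filter on low counts that left 15064 genes to test. Libraries came from cortex of the kidney of male mice (C57BL/6J) in which Crat, the gene of the mitochondrial enzyme carnitine acetyltransferase, was deleted by a Cre driven by the Ggt promoter in proximal tubule cells (Pt-CrAT), or from floxed mice without Cre (fl/fl). Mice were 12 months old with the word LFD in the title (3 Pt-CrAT, 3 fl/fl), 15 months old on chow (3 Pt-CrAT, 3 fl/fl) or 24 months old on chow (5 Pt-CrAT, 5 fl/fl). The labels do not spell out LFD, so levels at 12 months were not tested against those at the later ages. Only the genotype difference was compared among all 3 settings. Ranges and likeness of profiles over all 22 libraries include the 12-month libraries. The Cre is directed at the proximal tubule and not at the segments described here, and both genotypes carry the floxed allele. Nothing in the labels says whether mice shared a litter or a cage, so p-values measure the spread between these libraries.

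In the distal convoluted tubule, salt enters the cell from the urine through the sodium chloride cotransporter encoded by Slc12a3, the target of thiazide diuretics. Magnesium enters through a channel that contains Trpm6, and parvalbumin, encoded by Pvalb, is a cytosolic calcium-binding protein of the early part of this segment. Further downstream calcium is recovered in 3 steps: it enters through the channel Trpv5, is carried across the cell by the calbindins encoded by Calb1 and S100g, and leaves on the blood side through the sodium-calcium exchanger Slc8a1. Klk1 encodes tissue kallikrein, a serine protease that connecting tubule cells secrete into the urine and that releases kinins.

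Total counts were 12175804 to 17447367 in 21 libraries and 53157575 in a Pt-CrAT library of 12 months (CrAT12MLFD345). Crat averaged 36.2 ± 4.41 CPM (read counts scaled to a common library size) in Pt-CrAT kidneys and 74.7 ± 24.4 CPM in fl/fl kidneys at 24 months (SD, n = 5 each). At 15 months it went against the labels, at 63.1 to 72.6 CPM in the 3 libraries labelled Pt-CrAT and 34.3 to 60.0 CPM in the 3 libraries labelled fl/fl, so genotype names at that age are those of the labels only. At 12 months Crat averaged 62.5 ± 19.4 CPM in Pt-CrAT and 78.9 ± 22.5 CPM in fl/fl kidneys (SD, n = 3 each). These groups overlapped, with more Crat in the Pt-CrAT library CrAT12MLFD337 than in the fl/fl library Wt12MLFD326. Crat therefore did not separate the genotypes at 12 months, and genotype names there also rest on the labels. A pair of 24-month Pt-CrAT libraries stood apart in Kap, an androgen-dependent transcript of the proximal tubule, with 4565 CPM in CrAT24Mchow123 and 2853 CPM in CrAT24Mchow136, against at least 18928 CPM in the other 24-month libraries.

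The library kit reads about 1 tag near the 3′ end of each transcript, so CPM was taken as a per-transcript scale that gene length does not enter. On that scale Klk1 and S100g were the most abundant of the 8 genes, with 447 to 1820.3 CPM for Klk1 and 607 to 1821 CPM for S100g over the 22 libraries. Slc12a3 (119 to 349.7 CPM) and Calb1 (80.8 to 299 CPM) came next. Pvalb ranged over 5.31 to 109 CPM, Trpm6 over 6.15 to 21.3 CPM, Trpv5 over 1.96 to 10.7 CPM and Slc8a1 over 0.543 to 6.63 CPM. All 8 genes were therefore detected in every library. Pvalb spread most, with 20.6 times more in its highest library than in its lowest, while the same ratio was 2.95 for Slc12a3 and 2.999 for S100g. The highest Pvalb library was CrAT12MLFD337 and the lowest was CrAT24Mchow123, from the pair low in Kap. Such ratios run over all 22 libraries, so they also span ages and diet words. The ratios of 12.2 for Slc8a1 and 5.43 for Trpv5 rest on 8 to 86 counts and 26 to 262 counts per library.

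**Figure D1:**
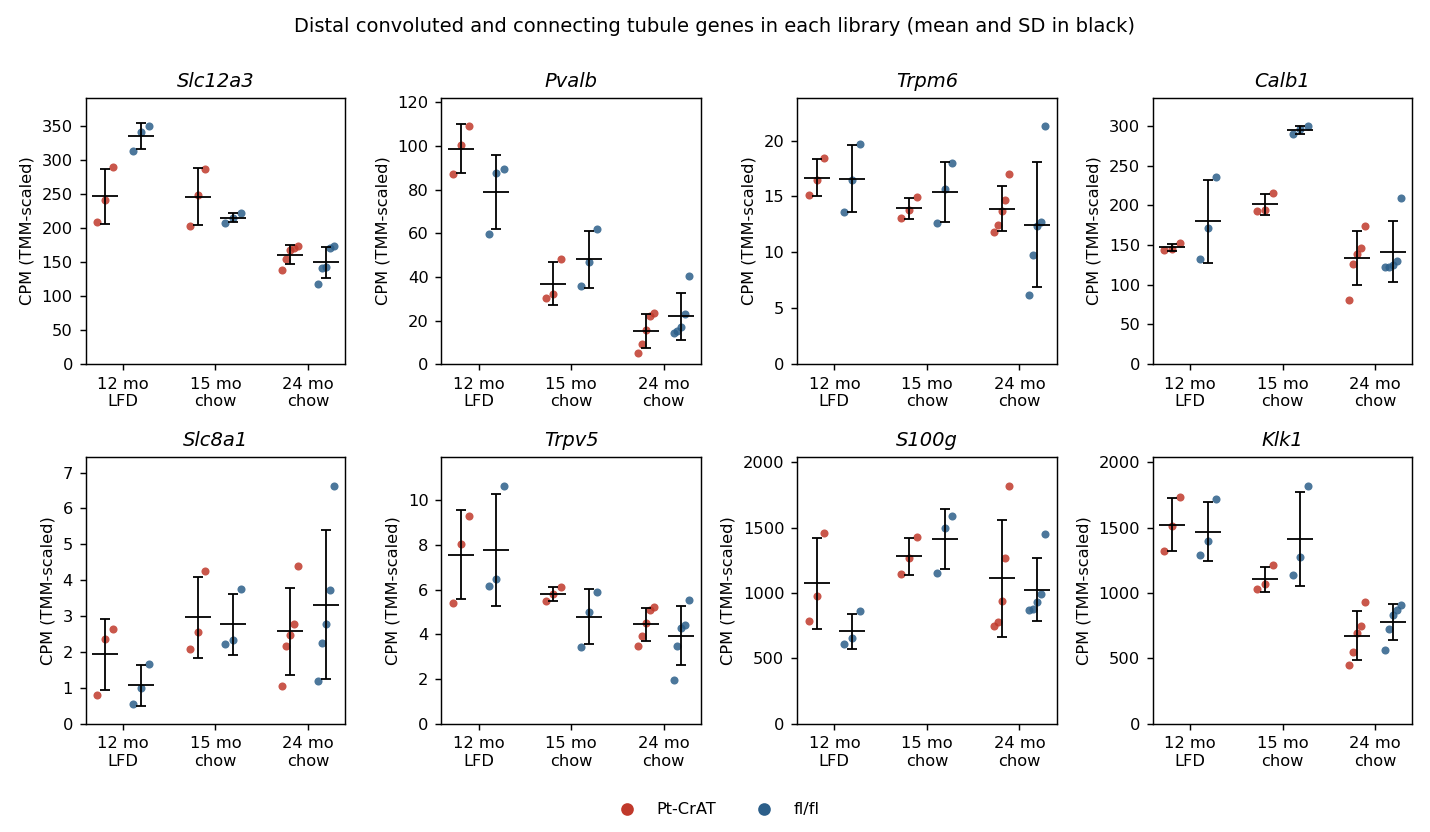
TMM-scaled CPM of the 8 genes in each of the 22 libraries, by age, diet word and genotype label, with Pt-CrAT (red) left of fl/fl (blue); black lines give the mean and SD of each group. Klk1 spans 447 to 931 CPM at 24 months and 1032 to 1820.3 CPM at 15 months, whereas S100g spans 752 to 1821 CPM at 24 months and 1149 to 1587 CPM at 15 months.

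In GRCm38 the 8 genes lie on 8 chromosomes. Slc12a3 (ENSMUSG00000031766) lies at chr8:94329201-94366214, Pvalb (ENSMUSG00000005716) at chr15:78191114-78206400 and Trpm6 (ENSMUSG00000024727) at chr19:18749983-18892511. Calb1 (ENSMUSG00000028222) lies at chr4:15881264-15908064, Slc8a1 (ENSMUSG00000054640) at chr17:81373105-81738377 and Trpv5 (ENSMUSG00000036899) at chr6:41652173-41680769. S100g (ENSMUSG00000040808) lies at chrX:162961992-162964599 and Klk1 (ENSMUSG00000063903) at chr7:44225360-44229618. S100g overlaps Ctps2 on the opposite strand (11.5 to 18.4 CPM without TMM scaling) and Klk1 overlaps the pseudogene Gm10109 (0 to 0.769 CPM without TMM scaling). Whether counting used strand is not given in the sources used here, and reads of such pairs may have been shared.

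RefSeq gives promoter windows of 300 bases (250 before the annotated start and 50 after it, build GRCm38.p6) for 7 of the 8 genes. They are shown for Slc12a3, Pvalb and Klk1, the members that passed the test with age in Pt-CrAT kidneys, and for S100g, which did not pass there. Capitals mark matches, on either strand, to TATAAA, the TATA box, or to AGGTCA, the half-site bound by many nuclear receptors. A match on the other strand reads TGACCT here. The windows are chr8:94328958-94329257 (plus strand) for Slc12a3, chr15:78206351-78206650 (minus strand) for Pvalb, chr7:44225110-44225409 (plus strand) for Klk1 and chrX:162964550-162964849 (minus strand) for S100g.
Slc12a3: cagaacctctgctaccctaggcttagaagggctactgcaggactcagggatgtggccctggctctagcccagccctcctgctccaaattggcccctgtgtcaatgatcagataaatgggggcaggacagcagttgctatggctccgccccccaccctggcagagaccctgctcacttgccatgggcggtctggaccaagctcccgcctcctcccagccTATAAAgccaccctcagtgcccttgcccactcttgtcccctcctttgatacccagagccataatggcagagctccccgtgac
Pvalb: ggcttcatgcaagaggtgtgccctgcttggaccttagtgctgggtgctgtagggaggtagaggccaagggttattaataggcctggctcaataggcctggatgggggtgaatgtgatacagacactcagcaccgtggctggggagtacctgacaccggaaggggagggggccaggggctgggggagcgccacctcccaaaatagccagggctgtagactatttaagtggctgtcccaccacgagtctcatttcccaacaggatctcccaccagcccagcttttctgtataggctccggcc
Klk1: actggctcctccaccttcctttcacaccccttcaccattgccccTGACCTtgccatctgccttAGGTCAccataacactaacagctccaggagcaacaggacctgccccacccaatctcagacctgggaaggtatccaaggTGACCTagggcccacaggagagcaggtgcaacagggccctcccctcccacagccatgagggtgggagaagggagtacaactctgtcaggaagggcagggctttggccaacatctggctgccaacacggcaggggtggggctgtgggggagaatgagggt
S100g: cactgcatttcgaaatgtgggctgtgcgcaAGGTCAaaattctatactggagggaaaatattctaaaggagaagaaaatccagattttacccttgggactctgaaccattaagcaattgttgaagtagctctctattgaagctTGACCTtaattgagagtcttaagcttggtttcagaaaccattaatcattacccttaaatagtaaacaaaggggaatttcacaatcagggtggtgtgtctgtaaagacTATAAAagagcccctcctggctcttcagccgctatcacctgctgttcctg
The Slc12a3 window held TATAAA 32 bases before the start and no AGGTCA. The Klk1 window held 3 AGGTCA matches, at 206, 187 and 109 bases before the start, and the S100g window held 2, at 220 and 107 bases before it, besides a TATAAA at the annotated start itself. The Pvalb window held neither, nor did those of Trpm6 and Slc8a1, while Trpv5 held a TATAAA 43 bases before the start. AGAACA, a half-site of steroid receptors, was only in a second annotated Pvalb window, 40 bases after that start. GTTAAT, a half-site of HNF1, was also searched for and was in no window of these genes. Of all 32851 mouse windows of this length 13.6% held TATAAA, 16.3% AGGTCA, 19% AGAACA and 7.1% GTTAAT. No matches overlapped. A match is a run of letters and not a bound site, and 3′ tags do not show which start was used. Whether a match goes with a change in level was not tested.

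In kidneys of 24 months, set against kidneys of 15 months on the same chow, several of these genes were lower. In Pt-CrAT mice 3 of the 8 fell, Slc12a3, Pvalb and Klk1, where 5.71% of all genes tested fell. In fl/fl mice 2 of the 8 fell, Calb1 and Klk1, where 0.478% of all genes fell. None of the 8 rose in Pt-CrAT, where 5.61% of all genes rose, or in fl/fl, where 0.823% rose. With both genotypes averaged, a comparison chosen after seeing the data because Crat goes against the labels at 15 months, 4 of the 8 fell, Slc12a3, Pvalb, Calb1 and Klk1, where 6.97% of all genes fell, and none rose, where 9.41% of all genes rose. In whole cortex, fewer cells of a segment and less RNA per cell cannot be told apart.

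Slc12a3, the cotransporter gene with TATAAA in its window, was measured at 139, 155, 171, 174 and 167.8 CPM in Pt-CrAT kidneys at 24 months, against 203.6, 248 and 287 CPM in kidneys labelled Pt-CrAT at 15 months. In fl/fl kidneys it was measured at 119, 141, 171, 174 and 144 CPM at 24 months, against 222, 215 and 208 CPM at 15 months. In both genotypes every 24-month library lay below every 15-month library in these TMM-scaled CPM. Non-overlap in this direction was seen for 11.3% of all genes in Pt-CrAT and 8.26% in fl/fl. Without TMM scaling the Pt-CrAT groups of Slc12a3 overlapped, with 208 CPM in CrAT24Mchow136 against 199 CPM in CrAT15Mchow183. The fitted log2 fold change in Pt-CrAT was -0.61 (SE 0.14, edgeR adjusted p = 0.0069), with an exact two-sided permutation p of 0.0179, the smallest that 5 against 3 libraries allow. In fl/fl it was -0.52 (SE 0.14, edgeR adjusted p = 0.0557), which did not pass, with the same exact two-sided permutation p of 0.0179. Averaged over both genotypes, Slc12a3 fell by 0.57 on the log2 scale (SE 0.10, edgeR adjusted p = 6.08e-04).

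Pvalb had the largest fold change with age of the 8 genes in both genotypes. It was measured at 5.31, 15.9, 22.1, 9.27 and 23.6 CPM in Pt-CrAT kidneys at 24 months, against 30.5, 48.2 and 32.1 CPM at 15 months. In fl/fl kidneys the values were 17.0, 22.9, 14.3, 40.3 and 15.3 CPM at 24 months, against 35.7, 46.8 and 61.9 CPM at 15 months. The groups did not overlap in Pt-CrAT, and in fl/fl a single 24-month library, Wt24Mchow165, reached into the 15-month range. The log2 fold change was -1.28 in Pt-CrAT (SE 0.38, edgeR adjusted p = 0.0349, exact two-sided permutation p = 0.0179). In fl/fl it was -1.13 (SE 0.37, edgeR adjusted p = 0.107, exact two-sided permutation p = 0.0357), and averaged over both genotypes it was -1.20 (SE 0.27, edgeR adjusted p = 0.0054). Parvalbumin is also a protein of fast skeletal muscle, and 3 of 8 skeletal muscle markers were in the table, at a summed 1.54 to 2.65 CPM in Pt-CrAT and 1.89 to 3.03 CPM in fl/fl at 24 months, against 1.49 to 2.17 CPM and 1.44 to 2.69 CPM at 15 months.

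Trpm6, the magnesium channel of the same segment, gave no difference that passed. It was measured at 14.7, 12.4, 11.8, 17.0 and 13.7 CPM in Pt-CrAT kidneys at 24 months, against 15.0, 13.1 and 13.8 CPM at 15 months. The fl/fl values were 6.15, 12.4, 12.7, 21.3 and 9.77 CPM at 24 months, against 12.6, 15.7 and 18.0 CPM at 15 months, and the groups overlapped in both genotypes. The 95% interval of the log2 fold change was -0.51 to 0.50 in Pt-CrAT (edgeR adjusted p = 0.996) and -0.81 to 0.19 in fl/fl (edgeR adjusted p = 0.456).

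Among the genes of calcium transport, the calbindin Calb1 stood out. It was measured at 122.9, 122.8, 129, 209 and 124.3 CPM in fl/fl kidneys at 24 months, against 289, 299 and 296 CPM in kidneys labelled fl/fl at 15 months. In Pt-CrAT kidneys it was measured at 80.8, 126, 139, 147 and 173 CPM at 24 months, against 216, 193 and 194 CPM at 15 months. In these TMM-scaled CPM all 24-month libraries lay below all 15-month ones in both genotypes, and 4 of the 5 old fl/fl libraries lay within 122.8 to 129 CPM. The Pt-CrAT groups of Calb1 overlapped without TMM scaling, and the fl/fl groups did not. In fl/fl Calb1 fell by 1.06 on the log2 scale (SE 0.20, edgeR adjusted p = 0.0145, exact two-sided permutation p = 0.0179). In Pt-CrAT the log2 fold change of -0.59 did not pass (SE 0.20, edgeR adjusted p = 0.0557, exact two-sided permutation p = 0.0357), although limma-voom (adjusted p = 0.0463) and DESeq2 (adjusted p = 0.0428) placed it past the threshold. The average over both genotypes was -0.82 (SE 0.14, edgeR adjusted p = 6.18e-04).

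The other calbindin, S100g, whose window held 2 AGGTCA matches and a TATAAA at the annotated start, gave no difference that passed with all libraries. It was measured at 940.5, 752, 778, 1821 and 1271 CPM in Pt-CrAT kidneys at 24 months, against 1431, 1149 and 1269 CPM at 15 months. The fl/fl values were 872, 879.8, 934, 1455 and 996 CPM at 24 months, against 1155, 1499 and 1587 CPM at 15 months. The 24-month group held the highest Pt-CrAT library, CrAT24Mchow136, as well as the lowest. The log2 fold change was -0.21 in Pt-CrAT (SE 0.25, edgeR adjusted p = 0.637) and -0.46 in fl/fl (SE 0.25, edgeR adjusted p = 0.279), with 95% intervals of -0.72 to 0.31 and -0.98 to 0.05. Averaged over both genotypes it was -0.33 (SE 0.18, edgeR adjusted p = 0.203), and it passed there once CrAT24Mchow136 was left out (-0.45, edgeR adjusted p = 0.0437).

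The entry channel Trpv5 was measured at 4.52, 3.49, 3.92, 5.23 and 5.08 CPM in Pt-CrAT kidneys at 24 months, against 5.49, 5.80 and 6.11 CPM at 15 months. The fl/fl values were 3.49, 4.28, 1.96, 5.55 and 4.43 CPM at 24 months, against 5.89, 5.02 and 3.46 CPM at 15 months. The groups were apart in Pt-CrAT and overlapped in fl/fl, and neither log2 fold change passed, at -0.38 (SE 0.27, edgeR adjusted p = 0.366) and -0.28 (SE 0.27, edgeR adjusted p = 0.554). Exact two-sided permutation p was 0.0357 in Pt-CrAT and 0.393 in fl/fl. Without TMM scaling the Trpv5 groups also overlapped in Pt-CrAT, with 6.27 CPM in CrAT24Mchow136 against 5.38 CPM in CrAT15Mchow183. The exchanger Slc8a1 averaged 2.58 ± 1.21 CPM at 24 months (SD, n = 5) and 2.97 ± 1.13 CPM at 15 months (SD, n = 3) in Pt-CrAT. In fl/fl it averaged 3.32 ± 2.07 CPM at 24 months (SD, n = 5) and 2.77 ± 0.848 CPM at 15 months (SD, n = 3). At this depth its log2 fold change could only be placed between -1.20 and 0.78 in Pt-CrAT and between -0.74 and 1.25 in fl/fl.

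Klk1, whose window held 3 AGGTCA matches, was the member that passed in both genotypes. It was measured at 447, 548, 697, 750.0 and 931 CPM in Pt-CrAT kidneys at 24 months, against 1214, 1071 and 1032 CPM at 15 months. In fl/fl kidneys it was measured at 833, 568, 726, 873 and 906 CPM at 24 months, against 1139, 1278 and 1820.3 CPM at 15 months. No old library reached the level of any young one in these TMM-scaled CPM. Without TMM scaling the Pt-CrAT groups of Klk1 overlapped. The log2 fold change was -0.71 in Pt-CrAT (SE 0.20, edgeR adjusted p = 0.0230, exact two-sided permutation p = 0.0357). It was -0.85 in fl/fl (SE 0.20, edgeR adjusted p = 0.0333, exact two-sided permutation p = 0.0179) and -0.78 averaged over both genotypes (SE 0.14, edgeR adjusted p = 8.71e-04). Klk1 belongs to a cluster of near-identical kallikrein genes, so reads may be split among copies. Of 13 such Klk1b genes 10 were in the table, at a summed 2.16 to 6.80 CPM in Pt-CrAT and 2.94 to 5.71 CPM in fl/fl at 24 months, against 7.43 to 9.48 CPM and 8.80 to 9.53 CPM at 15 months. Of the 4 that could be tested none passed in either genotype, and Klk1b5 (-0.93, SE 0.25, edgeR adjusted p = 0.0157) and Klk1b21 (-1.21, SE 0.40, edgeR adjusted p = 0.0424) fell in the average of both.

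Single libraries decided several of the calls made within 1 genotype. In Pt-CrAT the call of Slc12a3 was lost without CrAT15Mchow204 (-0.47, edgeR adjusted p = 0.0873) and was made in the other 7 of 8 refits that each left out 1 library. The call of Pvalb was lost when only the libraries of both ages in Pt-CrAT were fitted (edgeR adjusted p = 0.101), and also without CrAT15Mchow185 (edgeR adjusted p = 0.183), CrAT15Mchow204 (0.0908), CrAT24Mchow123 (0.0526), CrAT24Mchow124 (0.0558) or CrAT24Mchow136 (0.0870), and that of Klk1 without CrAT15Mchow183 (0.0724), CrAT15Mchow185 (0.0817), CrAT15Mchow204 (0.0764), CrAT24Mchow123 (0.0557) or CrAT24Mchow124 (0.0566). In fl/fl the call of Calb1 was lost without Wt15Mchow205 (0.0575) or Wt15Mchow227 (0.0813), and that of Klk1 without Wt15Mchow205 (0.0620), Wt15Mchow225 (0.0739), Wt15Mchow227 (0.248), Wt24Mchow154 (0.0813), Wt24Mchow164 (0.0723) or Wt24Mchow165 (0.0619). Calb1 passed in Pt-CrAT once CrAT24Mchow146 was left out (-0.69, edgeR adjusted p = 0.0318). Without both low-Kap libraries, CrAT24Mchow123 and CrAT24Mchow136, the log2 fold change in Pt-CrAT was -0.85 for Pvalb (edgeR adjusted p = 0.156) and -0.61 for Klk1 (edgeR adjusted p = 0.106). The average over both genotypes was steadier. Slc12a3, Pvalb, Calb1 and Klk1 each passed in all 16 refits that left out 1 library, with highest edgeR adjusted p of 0.0043, 0.0209, 0.0022 and 0.0049. All 4 also passed without the low-Kap pair, at -0.55 for Slc12a3, -0.99 for Pvalb, -0.75 for Calb1 and -0.73 for Klk1.

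Other genes of these segments were read from a list of 12 further markers. In Pt-CrAT 2 fell and 1 rose with age, in fl/fl none passed, and in the average of both genotypes 3 fell and 1 rose. Whether passing or not, 5 of the 12 had a log2 fold change above 0 in Pt-CrAT and 1 in fl/fl. The median log2 fold change of the 12 was -0.41 in Pt-CrAT and -0.28 in fl/fl, beside -0.49 in each genotype for the 8 genes and 0.04 and 0.02 for all genes tested. Tmem52b, a membrane protein gene expressed in the distal convoluted tubule, was measured at 168.2, 147, 163, 211 and 194 CPM in Pt-CrAT kidneys at 24 months, against 233, 291 and 290 CPM at 15 months. In fl/fl kidneys it was 133, 160, 203, 192 and 149 CPM at 24 months, against 239, 251.2 and 213 CPM at 15 months. Again no old library reached a young one of its genotype, but without TMM scaling the groups of Tmem52b overlapped in both genotypes. Its log2 fold change was -0.62 in Pt-CrAT (SE 0.15, edgeR adjusted p = 0.0108), -0.48 in fl/fl (SE 0.15, edgeR adjusted p = 0.0853) and -0.55 in the average (SE 0.11, edgeR adjusted p = 0.0015). The transcription factor genes Sall3 (-0.58, SE 0.18, edgeR adjusted p = 0.0421) and Gata3 (0.69, SE 0.19, edgeR adjusted p = 0.0203) changed in opposite directions in Pt-CrAT. Emx1, a homeobox gene, fell in the average of both genotypes (-0.53, SE 0.13, edgeR adjusted p = 0.0097).

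**Figure D2:**
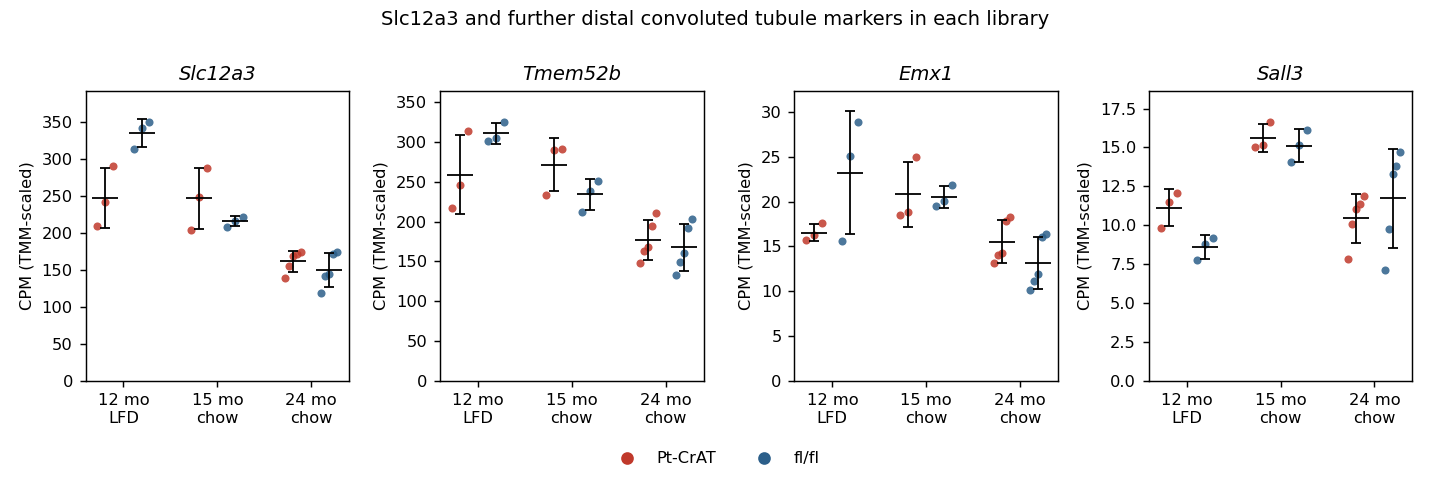
TMM-scaled CPM of Slc12a3 and of Tmem52b, Emx1 and Sall3, taken from the 12 further markers, in each library. Pt-CrAT (red) is left of fl/fl (blue), and black lines give the mean and SD. Markers of the 12 with a log2 fold change above 0 with age, 5 in Pt-CrAT and 1 in fl/fl, are not drawn. Slc12a3 and Tmem52b lie lower in all 24-month libraries than in all 15-month libraries of the same genotype.

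Genes that regulate or accompany these transporters were read from 3 further lists. Of 14 genes of cotransporter regulation, a list of the WNK kinases, their targets and partners and the basolateral potassium and chloride channels, Sgk1 rose in Pt-CrAT (0.89, SE 0.24, edgeR adjusted p = 0.0214) and Tsc22d3 fell in fl/fl (-0.996, SE 0.21, edgeR adjusted p = 0.0217). Both are known as genes induced by corticosteroids. In the average of both genotypes none of the 14 passed. Over all genes tested 5.61% rose in Pt-CrAT and 0.478% fell in fl/fl. Of 12 genes of magnesium handling, 3 fell and 1 rose in Pt-CrAT and none passed in fl/fl. Those that fell were Cnnm2, a basolateral protein of magnesium transport (-0.73, SE 0.20, edgeR adjusted p = 0.0193), Fxyd2, a subunit of the sodium pump (-0.56, SE 0.16, edgeR adjusted p = 0.0222), and Pcbd1, an enzyme of pterin recycling (-0.53, SE 0.14, edgeR adjusted p = 0.0161). Cldn19, a tight junction protein of the thick ascending limb, rose (0.96, SE 0.21, edgeR adjusted p = 0.0057). Of 11 genes of calcium exit and hormone receptors, only Vdr, the vitamin D receptor, passed, with a fall in Pt-CrAT (-0.57, SE 0.14, edgeR adjusted p = 0.0133). In the average of both genotypes Vdr (-0.41, SE 0.10, edgeR adjusted p = 0.0092) and Kl, the gene of the co-receptor klotho (-0.41, SE 0.14, edgeR adjusted p = 0.0397), fell.

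Markers of other segments also differed by age, and not all in the same direction. Proximal tubule markers summed to 5343 to 8710 CPM in Pt-CrAT and 7927 to 9339 CPM in fl/fl at 24 months, against 11044 to 11537 CPM and 10244 to 11854 CPM at 15 months, and 3 of 7 fell in Pt-CrAT and 1 of 7 in fl/fl. Slc5a2, the glucose transporter of the early proximal tubule, passed in both genotypes, at -1.24 in Pt-CrAT (SE 0.18, edgeR adjusted p = 7.43e-04) and -0.80 in fl/fl (SE 0.18, edgeR adjusted p = 0.0311). Thick ascending limb markers summed to 2325 to 4057 CPM in Pt-CrAT and 2530 to 3456 CPM in fl/fl at 24 months, against 1820.3 to 2674 CPM and 2154 to 2846 CPM at 15 months. Most counts of this sum were of Slc12a1 and Umod. Of the 8 markers 3 rose in Pt-CrAT. In fl/fl none passed, and 5 of the 8 lay below 0, with a median log2 fold change of -0.18. In the average of both genotypes 3 rose and 1 fell. In the collecting duct 3 of 6 principal cell markers rose in Pt-CrAT, among them the water channel Aqp2 (1.42, edgeR adjusted p = 0.0055), and none passed in fl/fl. A list taken for inner medulla and thin limb, which should be scarce in cortex, also held the uroplakin gene Upk1b and the keratins Krt5 and Krt19. It summed to 83.1 to 175 CPM in Pt-CrAT and 80.0 to 138 CPM in fl/fl at 24 months, against 29.6 to 81.4 CPM and 62.7 to 111 CPM at 15 months. The sum was mostly Cryab, with 27718 counts over all libraries, against at most 843 for any other gene of the list. In Pt-CrAT 5 of the 6 tested genes of this list rose, 1 of the 7 in the table was at 0 in the 15-month group, and in fl/fl none passed. How far the depth of the dissected cortex enters the age differences of the 8 genes was not tested.

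**Figure D3:**
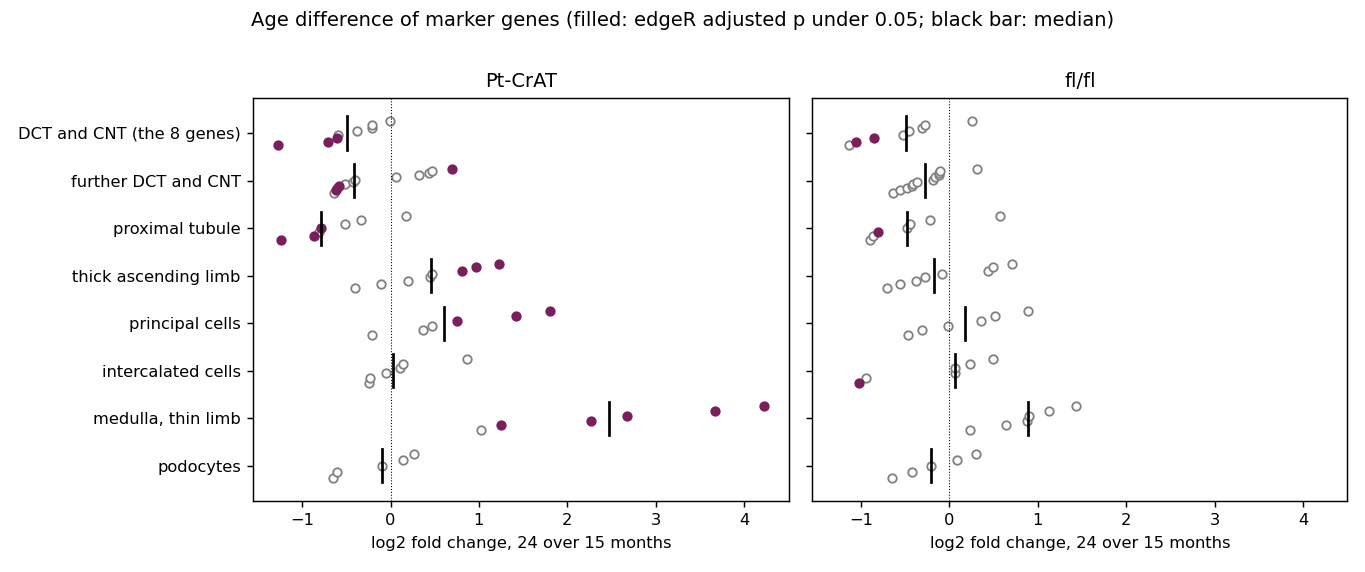
Log2 fold change of each tested marker, 24 over 15 months, by list (rows) in Pt-CrAT (left) and fl/fl (right); filled points passed an edgeR adjusted p of 0.05 and black bars are list medians. The 8 genes have a median of -0.49 in both genotypes, the proximal tubule markers -0.79 in Pt-CrAT and -0.48 in fl/fl, and the medulla and thin limb markers 2.47 in Pt-CrAT and 0.89 in fl/fl.

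None of the 8 genes passed the test between Pt-CrAT and fl/fl kidneys at any age. At 12 months 16.4% of all genes passed in 1 direction or the other, and 0% passed at 15 and at 24 months. At 15 and 24 months 1249 and 1409 of the 15064 genes had an unadjusted edgeR p under 0.05, and DESeq2 called 0 and 13. The members' median log2 fold changes were 0.03 at 12 months, -0.14 at 15 months and 0.01 at 24 months, beside 0.00, 0.01 and 0.02 for all genes.

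At 12 months Slc12a3 came nearest to the threshold. It was measured at 209, 289.8 and 241 CPM in Pt-CrAT kidneys, against 313, 341 and 349.7 CPM in fl/fl kidneys. The groups did not overlap, which in this direction held for 13.8% of all genes. The log2 fold change was -0.44 (SE 0.15, 95% interval -0.76 to -0.12, edgeR adjusted p = 0.0532), and DESeq2 alone placed it past the threshold (-0.43, DESeq2 adjusted p = 0.0357). Over all genes DESeq2 called 3328 at 12 months. The exact permutation p was 0.1, the smallest that 3 against 3 libraries allow.

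The calbindins at 12 months pointed in opposite directions without passing. S100g was measured at 786, 1462 and 980.0 CPM in Pt-CrAT kidneys, against 607, 859 and 658 CPM in fl/fl kidneys, and the groups overlapped (0.60, SE 0.28, 95% interval 0.02 to 1.19, edgeR adjusted p = 0.136). Calb1 was measured at 144, 152 and 145.5 CPM in Pt-CrAT kidneys, against 236, 172 and 133 CPM in fl/fl kidneys (-0.29, SE 0.23, 95% interval -0.76 to 0.18, edgeR adjusted p = 0.387). Pvalb stood at 100.4, 109 and 87.0 CPM in Pt-CrAT kidneys and 59.5, 89.4 and 87.7 CPM in fl/fl kidneys (0.32, SE 0.42, edgeR adjusted p = 0.626). For Klk1 the 95% interval of the log2 fold change was -0.41 to 0.52, for Trpm6 -0.55 to 0.56, for Trpv5 -0.65 to 0.54 and for Slc8a1 -0.50 to 2.01, and all 4 overlapped between the groups.

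Markers of other cell types also differed at 12 months. Adipocyte markers summed to 353 to 884 CPM in Pt-CrAT kidneys and 134 to 276 CPM in fl/fl kidneys at 12 months, none of the 8 markers in the table was at 0 in either group, and 6 of 7 tested rose. Markers of the medulla and thin limb summed to 36.9 to 69.4 CPM in Pt-CrAT and 80.4 to 85.2 CPM in fl/fl kidneys, and podocyte markers to 191 to 259.6 CPM in Pt-CrAT and 267 to 329.9 CPM in fl/fl kidneys, with no single gene of either list passing and none at 0. Of 8 thick ascending limb markers 2 fell, among them Cldn10 (-0.74, SE 0.18, edgeR adjusted p = 0.0145), at sums of 2533 to 2709 CPM in Pt-CrAT and 2204 to 3632 CPM in fl/fl kidneys. The part of these cells in the values of the 8 genes and their regulators was not tested. At 12 months 3 of 11 genes of calcium exit and hormone receptors passed, 2 of 12 magnesium genes, 2 of 14 cotransporter regulators and 2 of 12 further segment markers, where 16.4% of all genes did. Of the first list, Hsd11b2, the enzyme that keeps glucocorticoids from the mineralocorticoid receptor (-0.86, SE 0.16, edgeR adjusted p = 0.0055), and Kl (-0.70, SE 0.22, edgeR adjusted p = 0.0326) fell in Pt-CrAT at 12 months. The calcium pump gene Atp2b1 rose (0.54, SE 0.14, edgeR adjusted p = 0.0151). Of the magnesium genes Trpm7, a channel kinase related to Trpm6 (-0.88, SE 0.23, edgeR adjusted p = 0.0185), and Egf, a hormone gene of magnesium uptake (-0.70, SE 0.22, edgeR adjusted p = 0.0344), fell. Of the cotransporter regulators Cul3, a ubiquitin ligase scaffold of the WNK pathway, fell (-0.75, SE 0.22, edgeR adjusted p = 0.0255) and the potassium channel gene Kcnj16 rose (0.43, SE 0.14, edgeR adjusted p = 0.0455). Of the 12 further segment markers 2 fell, the epithelial sodium channel subunit Scnn1g (-0.80, edgeR adjusted p = 0.0425) and the potassium channel Kcnj1 (-0.85, edgeR adjusted p = 0.0454). The 12-month calls as a whole rest on few libraries: of 2464 genes called, 53 were called without CrAT12MLFD328, 391 without CrAT12MLFD337 and 408 without Wt12MLFD326.

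**Figure D4:**
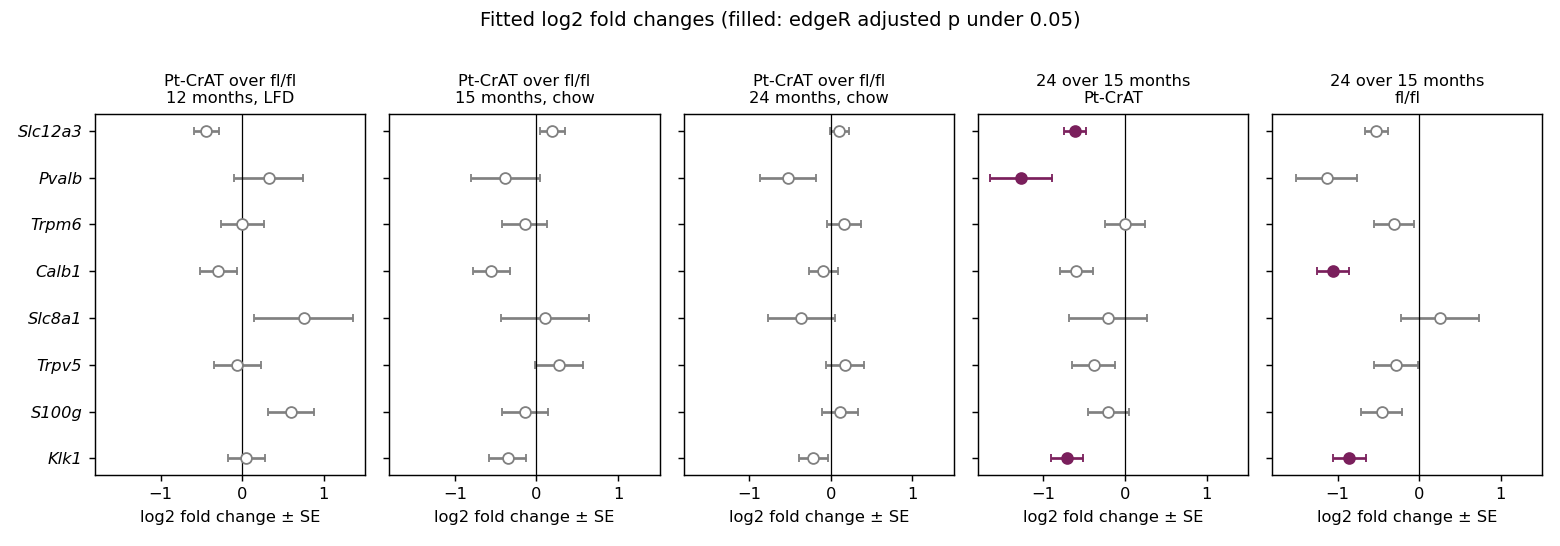
Fitted log2 fold changes of the 8 genes, with SE, for Pt-CrAT over fl/fl at 12, 15 and 24 months and for 24 over 15 months in Pt-CrAT and in fl/fl; filled points passed an edgeR adjusted p of 0.05. No genotype panel holds a filled point, and the filled points of the age panels are Slc12a3, Pvalb and Klk1 in Pt-CrAT and Calb1 and Klk1 in fl/fl.

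At 15 months Calb1 was the member whose labelled genotypes were apart. Its 216, 193 and 194 CPM in libraries labelled Pt-CrAT all lay below the 289, 299 and 296 CPM in libraries labelled fl/fl, a non-overlap seen for 12.7% of all genes in this direction. The log2 fold change of -0.55 did not pass (SE 0.23, 95% interval -1.02 to -0.08, edgeR adjusted p = 0.581, exact permutation p = 0.1). The other 7 genes overlapped, with log2 fold changes between -0.38 (Pvalb) and 0.28 (Trpv5) and edgeR adjusted p of at least 0.595.

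At 24 months, where Crat followed the labels, all 8 genes overlapped between the genotypes, and 1.53% of all genes did not overlap in 1 direction or the other. Slc12a3 averaged 161 ± 14.5 CPM in Pt-CrAT and 149.7 ± 23.1 CPM in fl/fl kidneys, and the interval of its log2 fold change was -0.14 to 0.36 (edgeR adjusted p = 0.776; SD, n = 5 each; exact permutation p = 0.405). Klk1 averaged 675 ± 187 CPM in Pt-CrAT and 781 ± 137 CPM in fl/fl kidneys, with an interval of -0.57 to 0.15 (edgeR adjusted p = 0.685). Calb1 averaged 133 ± 34.1 CPM in Pt-CrAT and 142 ± 37.9 CPM in fl/fl kidneys, with an interval of -0.45 to 0.28 (edgeR adjusted p = 0.878). Pvalb had the lowest fold change, -0.52, and a wide interval of -1.23 to 0.18 (edgeR adjusted p = 0.615). For Trpm6 the interval was -0.27 to 0.60, for Trpv5 -0.31 to 0.66, for S100g -0.34 to 0.57 and for Slc8a1 -1.21 to 0.49. None of the 14 cotransporter regulators, 12 magnesium genes, 11 genes of calcium exit and hormone receptors or 12 further markers passed at 15 or at 24 months. At 24 months the cotransporter regulators smallest in p were Tsc22d3 (0.78, SE 0.19, edgeR adjusted p = 0.352) and Sgk1 (0.69, SE 0.20, edgeR adjusted p = 0.449).

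Whether the age difference itself depended on genotype was tested with an interaction term, which called 0% of all genes, although 2255 of the 15064 had an unadjusted edgeR p under 0.05, and DESeq2 called 23. None of the 8 passed. The smallest edgeR adjusted p was 0.413, for Calb1, whose interaction of 0.46 (SE 0.29) had a 95% interval of -0.13 to 1.06. The calls of Calb1 in fl/fl and of Slc12a3 and Pvalb in Pt-CrAT are therefore not shown to be particular to a genotype. A test of variation of the genotype difference among all 3 settings called 5.07% of all genes and none of the 8, with the smallest edgeR adjusted p, 0.0896, for Slc12a3.

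Among the 4 chow groups ordered by mean TMM-scaled CPM, Slc12a3 was highest in Pt-CrAT-labelled kidneys of 15 months and lowest in fl/fl kidneys of 24 months. Along that order the only neighbours that did not overlap were fl/fl at 15 months and Pt-CrAT at 24 months. For Calb1 the 15-month fl/fl-labelled group stood alone above the other 3, and for Klk1 the break lay between Pt-CrAT at 15 months and fl/fl at 24 months. For Pvalb, Trpm6, Trpv5, S100g and Slc8a1 all neighbouring chow groups overlapped.

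Likeness of profile was measured as the root mean square difference of log2(CPM + 0.5), each gene centred on its own mean, over all 22 libraries. The genes nearest to Slc12a3, whose own SD was 0.43, were Tmem52b (0.13), AU040320 (0.17) and Fmo1 (0.18). Nearest to Pvalb (SD 1.14) were Nudt19 (0.57), Acy3 (0.57) and Ttr (0.58). Klk1 (SD 0.55) had Lhx1os (0.24), P2ry1 (0.25) and Pi4ka (0.25), and Calb1 (SD 0.47) had Acss1 (0.27), Fuz (0.29) and Lipa (0.31). Trpm6 (SD 0.35) was nearest to Scnn1a (0.24), Cebpa (0.25) and Ptgfr (0.26), and S100g (SD 0.43) to Mt1 (0.25), Fabp3 (0.27) and Slc2a9 (0.28). For the low-count genes Trpv5 (Dnajc4 0.26, Ap1m2 0.27, Foxo4 0.28) and Slc8a1 (Fam32a 0.38, Frg1 0.40, Pja2 0.40) the own SDs were 0.46 and 0.65.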

How the data were processed

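RNA was isolated with TRIzol and sequenced from QuantSeq 3′ FWD libraries, per the labels' protocols. The authors deposited raw read counts per gene. They also deposited a normalized signal, which equals those counts over DESeq2 size factors when these are recomputed, and it served only for that check. Genome build GRCm38, R 3.4.3 and DESeq2 1.18.1 are named in the submitters' processing notes. No aligner or counter was given in the sources used here. No gene had fewer than 66 counts in all, so rarer genes do not appear.

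Counts were normalized by TMM, filtered with filterByExpr and fitted in 1 model of 22 libraries and 6 groups with 16 residual degrees of freedom (edgeR 4.0.16, robust quasi-likelihood F test, R 4.3.3), with Benjamini-Hochberg adjustment over 15064 genes and a threshold of 0.05. The biological coefficient of variation was 20.5%. The procedure was tested on simulated counts. Symbols and coordinates came from GENCODE M21, which held 16514 of the 16556 identifiers. Levels are TMM-scaled CPM computed from the counts; reads carry no molecular identifiers, so PCR copies count as reads. Exact permutation tests compared mean CPM between groups.

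Alternatives were RLE scaling, no filter, limma-voom 3.58.1, DESeq2 1.42.0, fits of only the libraries compared, and leaving out each library. The members and all gene lists were chosen with earlier results of these data known, so no list is independent evidence. Some lists share genes, and a call of a shared gene is counted in each. Umod, Cldn16 and Cldn19 are in the magnesium and thick ascending limb lists. Kcnj1 is in the further segment and thick ascending limb lists, and Hsd11b2 in the hormone receptor and principal cell lists. Text names all 8 members, up to 4 genes per list with the smallest p that passed (otherwise up to 2 as values), and the 3 most alike profiles per member among genes averaging at least 5 CPM. A result that is withheld is not reported here.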

Additional observations from a re-analysis of the deposited data

Results flagged for a closer look

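Calb1 in the fl/fl library Wt24Mchow165 lay far from the other 4 libraries of its group: 209 CPM, against 122.8, 122.9, 124.3 and 129 CPM in the others. The gap to its nearest neighbour was 0.923 of the group's whole range, above Dixon's critical value of 0.71 for 5 samples.

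S100g was high in the same library, at 1455 CPM against 872, 879.8, 934 and 996 CPM, with a gap of 0.789 of the range. The 24-month groups of all 8 genes gave 16 such checks, and chance flags about 1 in 20.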

How the results depend on the processing

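No paired analysis was possible because no replicate number is shared between the groups compared. In all 15064 genes, no alternative moved the median log2 fold change by more than 0.1. For the 8 genes, DESeq2 called 1 at 12 months and 4 with age in fl/fl, against 0 and 2 in the edgeR fit, and the average of both genotypes called 4. Over all genes DESeq2 called 3328 at 12 months and 764 with age in fl/fl, against 2464 and 196, and the average called 2467. With age in Pt-CrAT limma-voom and DESeq2 called 4, with Calb1 added, and fitting only the libraries compared called 2, with Pvalb lost, against 3. Over all genes these 3 fits called 1655, 2169 and 1273, against 1705. Leaving out 1 library in turn gave 0 to 4 members called with age in Pt-CrAT and 0 to 2 in fl/fl. Without CrAT24Mchow123 and CrAT24Mchow136 together 1 was called in Pt-CrAT. The alternatives that leave out a pair of libraries and the average of both genotypes were chosen after seeing the data.

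Counts over all genes depended far more on single libraries. At 12 months they were 53 to 3513 when 1 library was left out, 19 without CrAT12MLFD328 and Wt12MLFD326 together and 1 when only the 6 libraries of that age were fitted, against 2464. Fitting only the libraries compared gave 4 at 15 months. At 24 months DESeq2 called 13 and leaving out 1 library gave 0 to 2. For variation among the 3 settings DESeq2 called 2461 and leaving out 1 library gave 2 to 2195, against 764. DESeq2 called 23 for the interaction. With age in Pt-CrAT the count was 417 without the low-Kap pair and 393 to 1777 without 1 library, against 1705. In fl/fl it was 764 by DESeq2, 2467 in the average of both genotypes and 3 to 756 without 1 library, against 196. The cause was not tested.

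Reversals of sign occurred among fold changes that had not passed. With only the libraries compared, Trpm6 was -0.016 at 12 months and 0.011 with age in Pt-CrAT. Without the low-Kap pair, Calb1 was 0.034 and S100g -0.15 at 24 months, and the average of both genotypes put Slc8a1 at 0.022 with age. Leaving out 1 library moved Trpm6 over -0.11 to 0.14, Trpv5 over -0.23 to 0.25 and Klk1 over -0.042 to 0.20 at 12 months. It moved Slc8a1 over -0.26 to 0.38 at 15 months. At 24 months the ranges were -0.0024 to 0.44 for Trpm6, -0.19 to 0.094 for Calb1, -0.64 to 0.054 for Slc8a1 and -0.14 to 0.27 for S100g. For the interaction they were -0.21 to 0.059 for Slc12a3, -0.37 to 0.19 for Pvalb, -0.28 to 0.082 for Trpv5, -0.0076 to 0.41 for S100g and -0.084 to 0.27 for Klk1. With age they were -0.088 to 0.064 for Trpm6 and -0.49 to 0.15 for Slc8a1 in Pt-CrAT, and -0.16 to 0.53 for Slc8a1 in fl/fl. Of levels, those without TMM differed by more than the SD for Slc12a3 in Pt-CrAT at 24 months (181 CPM) and for Pvalb (85.7 CPM), Trpm6 (14.5 CPM) and Calb1 (128 CPM) in Pt-CrAT at 12 months. Depth limits Slc8a1 most, with 8 to 86 counts per library.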

Other observations

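Wt24Mchow165 was the highest fl/fl library of 24 months for 7 of the 8 genes, and CrAT12MLFD337 was the highest Pt-CrAT library of 12 months for 7 of the 8. Among Pt-CrAT libraries of 24 months, CrAT24Mchow123 was the lowest for 4 genes, Slc12a3, Pvalb, Calb1 and Klk1, and CrAT24Mchow136 was the highest for 4. Both libraries held little Kap, and their proximal tubule markers summed to 5343 and 5394 CPM, against 7896 to 8710 CPM in the other 3 Pt-CrAT libraries of that age.

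With age, 3 of the 4 tested injury markers rose in Pt-CrAT and none passed in fl/fl. In the average of both genotypes Lcn2, a lipocalin secreted by injured tubules, rose by 3.04 on the log2 scale (SE 0.44, edgeR adjusted p = 1.54e-04) and Havcr1, a membrane protein of injured proximal tubule cells, by 2.23 (SE 0.45, edgeR adjusted p = 0.0024). Of 5 smooth muscle markers tested, 2 rose in Pt-CrAT and none passed in fl/fl. Of 5 androgen-dependent genes 2 fell in Pt-CrAT, Odc1 and Cyp2j13. Of 6 intercalated cell markers only Slc26a4, the gene of the chloride exchanger pendrin, passed, with a fall in fl/fl (-1.03, edgeR adjusted p = 0.0274). None of 5 podocyte markers passed in either genotype.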
